A study of Mus musculus with 9 samples.

Results

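The semaphorin, plexin and neuropilin genes are a family of guidance ligands and their receptors, here 20 semaphorins, 9 plexins and 2 neuropilins. These 31 genes were taken by name, and a CHD7 peak was assigned to a gene when its midpoint fell in the regulatory domain of that gene. All 31 were found among the 21911 mouse protein-coding genes with such a domain, and their domains held 32 of the 3761 peaks of the deposited list. The peaks were measured by CUT&RUN, a method that cuts and sequences the DNA around an antibody-bound protein, in wild-type (WT) cardiac precursor (CP) cells made in culture from mouse embryonic stem cells. The cells were collected at day 5 of differentiation into cardiomyocytes, and 9 libraries were made, 3 each for the CHD7 antibody, for IgG as control and for input. The only values used are peak positions, in 1 list that joins the 3 CHD7 replicates. Read depth, peak strength and replicate spread are therefore unknown, and replicate errors cannot be given. The list holds no expression values, so the labelled cell type was not checked against marker genes.

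Semaphorins are extracellular cues that attract or repel migrating cells and growing axons and vessels. Class 3 semaphorins are secreted and mostly bind neuropilins, which lack a signalling domain of their own and pass the signal on through plexins, whereas Sema3e binds Plxnd1 directly and many membrane-bound semaphorins bind plexins without a neuropilin. Plexins act on small GTPases and the cytoskeleton. In the developing heart, signals through Sema3c, neuropilins and plexins guide cardiac neural crest cells into the outflow tract, and Plxnd1 is needed for its septation and for vessel patterning. CHD7 is an ATP-dependent chromatin remodeller, and heterozygous mutations in its gene cause CHARGE syndrome, in which heart defects are common.

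At least 1 CHD7 peak lay in the domain of 15 of the 31 genes (48.4%, Wilson 95% CI 32.0 to 65.2, counting error only), while 22.7% of all 21911 genes had such a peak. The genes with a peak were both neuropilins, 4 of 9 plexins, 7 of 13 membrane-bound semaphorins and 2 of 7 class 3 semaphorins. Nrp1 had the most, with 4 peaks, and Nrp2, Plxnd1, Sema4d and Sema6a had 3 each. This order depended on distant peaks. With the extension of the domains limited to 100 kb, Plxnd1 had 3 peaks, Nrp1, Sema4d and Sema6a had 1 each and Nrp2 had 0, and with the single nearest TSS Plxnd1 and Sema6a had 3, Nrp1 and Nrp2 had 2 and Sema4d had 1. The 4 class 3 semaphorins of chromosome 5, Sema3a, Sema3c, Sema3d and Sema3e, had 0. Counts of 2 or more peaks were found for 11 of the 31 genes and counts of 3 or more for 5. The shares of their deciles of domain length with such counts sum to 3.28 and 1.18 genes, and those over all genes were 5.88% and 1.75%.

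A regulatory domain ran from 5 kb upstream to 1 kb downstream of the transcription start site (TSS) and was extended on either side to the corresponding stretch of the next gene, or to 1 Mb. Long domains collect more peaks, and many genes of the family have long ones. Their median domain was 189 kb, against 90.2 kb over all genes, and 12 of the 31 were in the longest decile of all genes. The share of all genes with a peak went from 5.7% in the shortest decile to 45.0% in the ninth and 44.1% in the longest. Summed over the 31 genes, the shares of their own deciles came to 9.22 genes with a peak, or 29.7%, so that the observed 15 was 1.63 times this number. In the longest decile alone, 8 of the 12 genes (66.7%) had a peak. In number of peaks, the 32 pairs of gene and peak compared with a sum of 14.6 over the mean counts of the 500 genes nearest in domain length to each gene. Per Mb of domain there were 2.1 peaks for the family and 1.48 for all genes. No chance test was made on these counts, which describe a list of named genes.

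**Figure D1:**
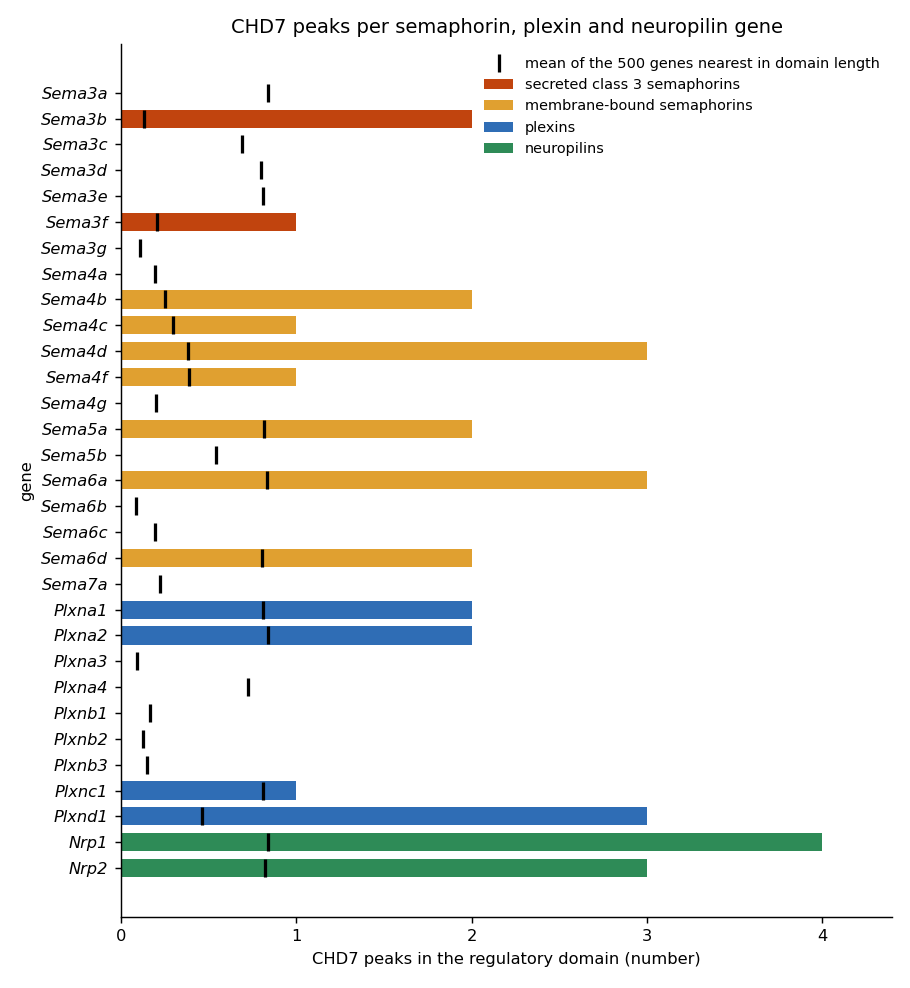
Number of CHD7 peaks in the regulatory domain of each of the 31 genes (bars, coloured by role), with the mean number over the 500 genes nearest in domain length (black marks). All marks lie below 1 peak. Nrp1 has 4 peaks against a mean of 0.84, and 16 genes have no bar.

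**Figure D2:**
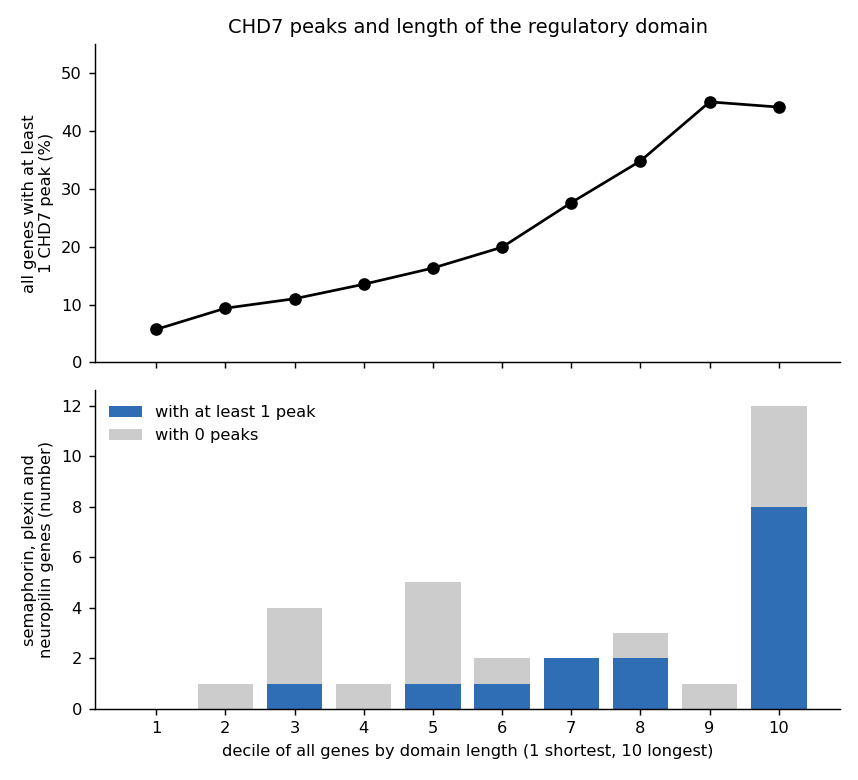
Share of all genes with at least 1 CHD7 peak in each decile of domain length (upper plot, %) and number of semaphorin, plexin and neuropilin genes with and without a peak in the same deciles (lower plot). The share goes from 5.7% in the shortest decile to 44.1% in the longest, where 12 of the 31 genes lie and 8 of them have a peak.

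The neuropilins are the ligand-binding co-receptors of class 3 semaphorins, and Nrp1 is also a co-receptor for VEGF. Both have domains over 1 Mb, 1321 kb for Nrp1 and 1410 kb for Nrp2, and together they held 7 peaks, where the mean counts of genes of like length sum to 1.66. Nrp1, on the plus strand of chromosome 8 with its TSS at 128359284, had 4 peaks, a number reached by 4.6% of the 500 genes nearest in domain length. Its nearest peak, peak 1830, spans 128361679 to 128363276, is 1598 bp wide and lies in intron 1 of 16 of Nrp1, 3194 bp downstream of the TSS. The other 3 Nrp1 peaks were far upstream. Peak 1829 (127805452 to 127806234) was 553441 bp and peak 1828 (127693224 to 127695083) was 665130 bp from the TSS, and both are intergenic. Peak 1827 (127548786 to 127549432), at 810175 bp upstream, is in intron 22 of 24 of Pard3, a cell polarity gene that is the upstream neighbour of Nrp1.

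Nrp2 has a similar setting, since its upstream neighbour is the related gene Pard3b. It is on the plus strand of chromosome 1, with its TSS at 62703702, and its 3 peaks were a number reached by 10% of genes of like length. Peak 53 (62397165 to 62398895), 305672 bp upstream, and peak 52 (61938592 to 61939106), 764853 bp upstream, are in introns 18 and 2 of the 22 introns of Pard3b. Peak 54 (62827007 to 62828488) was 124046 bp downstream of the TSS, past the end of Nrp2 at 62818695, in the only intron of the lincRNA Gm4208. Of the 7 neuropilin peaks, 5 were thus also in the domain of Pard3 or Pard3b. For peaks 53 and 54 the nearest TSS of any protein-coding transcript was that of Nrp2, and for peak 1830 that of Nrp1, while the other 4 were nearer to Pard3 or Pard3b. The central 300 bp of the peak nearest to each of these 2 genes are given as the peak sequence closest to their TSS. Capitals mark matches to the motifs described further on, on either strand. They are the HAND E-box and then TCF/LEF in Nrp1, and the HAND E-box and then GATA in Nrp2.
Nrp1 peak 1830, chr8:128362328-128362627, GRCm38, plus strand: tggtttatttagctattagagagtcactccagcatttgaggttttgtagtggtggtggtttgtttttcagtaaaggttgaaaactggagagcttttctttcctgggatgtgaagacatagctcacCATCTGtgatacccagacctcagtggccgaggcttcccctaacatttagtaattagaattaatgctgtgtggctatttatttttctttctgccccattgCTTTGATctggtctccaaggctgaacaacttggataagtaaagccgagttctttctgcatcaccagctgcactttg
Nrp2 peak 54, chr1:62827598-62827897, GRCm38, plus strand: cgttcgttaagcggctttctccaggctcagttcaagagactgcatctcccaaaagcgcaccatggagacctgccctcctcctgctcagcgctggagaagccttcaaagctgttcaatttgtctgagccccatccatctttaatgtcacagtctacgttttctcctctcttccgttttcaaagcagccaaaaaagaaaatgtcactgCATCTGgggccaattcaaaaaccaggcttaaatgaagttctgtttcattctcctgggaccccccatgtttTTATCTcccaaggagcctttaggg

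Plexins are the signalling receptors, and peaks were found for Plxna1, Plxna2, Plxnc1 and Plxnd1. Plxnd1, the receptor of Sema3e and a partner of neuropilins in Sema3c signalling, had 3 peaks in a domain of 247 kb, as many as or more than which were found in 1.8% of the 500 genes of like length. This share counts peaks 1342 and 1343, with midpoints 4206 bp apart, separately. The gene is on the minus strand of chromosome 6 with its TSS at 115995005. Its 3 peaks are upstream within a short stretch, peak 1342 (116030141 to 116031312) at 35722 bp, peak 1343 (116034686 to 116035180) at 39928 bp and peak 1344 (116056716 to 116058048) at 62377 bp from the TSS. All 3 are in introns of the neighbour Tmcc1, the first pair in intron 4 and the last in intron 3 of 5. Peak 1344 was 371 bp from a TSS of another Tmcc1 transcript, and peaks 1342 and 1343 were 26228 and 22022 bp from a Tmcc1 TSS. The nearest protein-coding TSS was thus not that of Plxnd1 for any of the 3 peaks. With 1 TSS per gene and the single nearest gene as the rule, however, all 3 went to Plxnd1. The central 300 bp of the peak nearest to Plxnd1 hold none of the 11 motifs searched, and are printed in lower case throughout.
Plxnd1 peak 1342, chr6:116030577-116030876, GRCm38, plus strand: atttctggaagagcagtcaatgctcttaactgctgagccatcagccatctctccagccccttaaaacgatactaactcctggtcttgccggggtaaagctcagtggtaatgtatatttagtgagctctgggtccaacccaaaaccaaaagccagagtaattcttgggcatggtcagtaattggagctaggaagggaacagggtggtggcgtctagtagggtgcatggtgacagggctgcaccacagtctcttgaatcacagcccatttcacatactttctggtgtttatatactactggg

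Of the class A plexins, which signal for class 3 and class 6 semaphorins, Plxna1 and Plxna2 had 2 peaks each, a number reached by 22.6% and 22.0% of genes of like length. The Plxna1 peaks are on chromosome 6 at the edges of a 691 kb domain. Peak 1301 (89582159 to 89582594), 219757 bp upstream, is in intron 1 of Chchd6. Peak 1300 (88905216 to 88905613), 457205 bp downstream, is in intron 1 of Tpra1 and only 219 bp from a TSS of that gene. The Plxna2 peaks on chromosome 1 are both intergenic and far upstream, peak 256 (194025005 to 194026710) at 593967 bp and peak 255 (193876088 to 193876854) at 743354 bp. Plxnc1, the receptor of Sema7a, had 1 peak, peak 2216 on chromosome 10 (95231583 to 95232765), 287339 bp upstream in intron 2 of Cradd. At least 1 peak was found for 47.8% of genes of like length. The last class A genes, Plxna3 and Plxna4, had 0. The domain of Plxna4 spans 1008 kb and its nearest peak was 1255 kb away, which is outside the domain. None of the class B plexins, receptors of class 4 semaphorins, had a peak in its domain, which measured 73.5 kb for Plxnb1, 40.8 kb for Plxnb2 and 48.2 kb for Plxnb3. Plxna3 (38.6 kb) and Plxnb3 are on chromosome X, which held 14 of the 3761 peaks, or 0.0819 per Mb. The nearest peak was 16286 kb from Plxna3 and 15714 kb from Plxnb3.

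**Figure D3:**
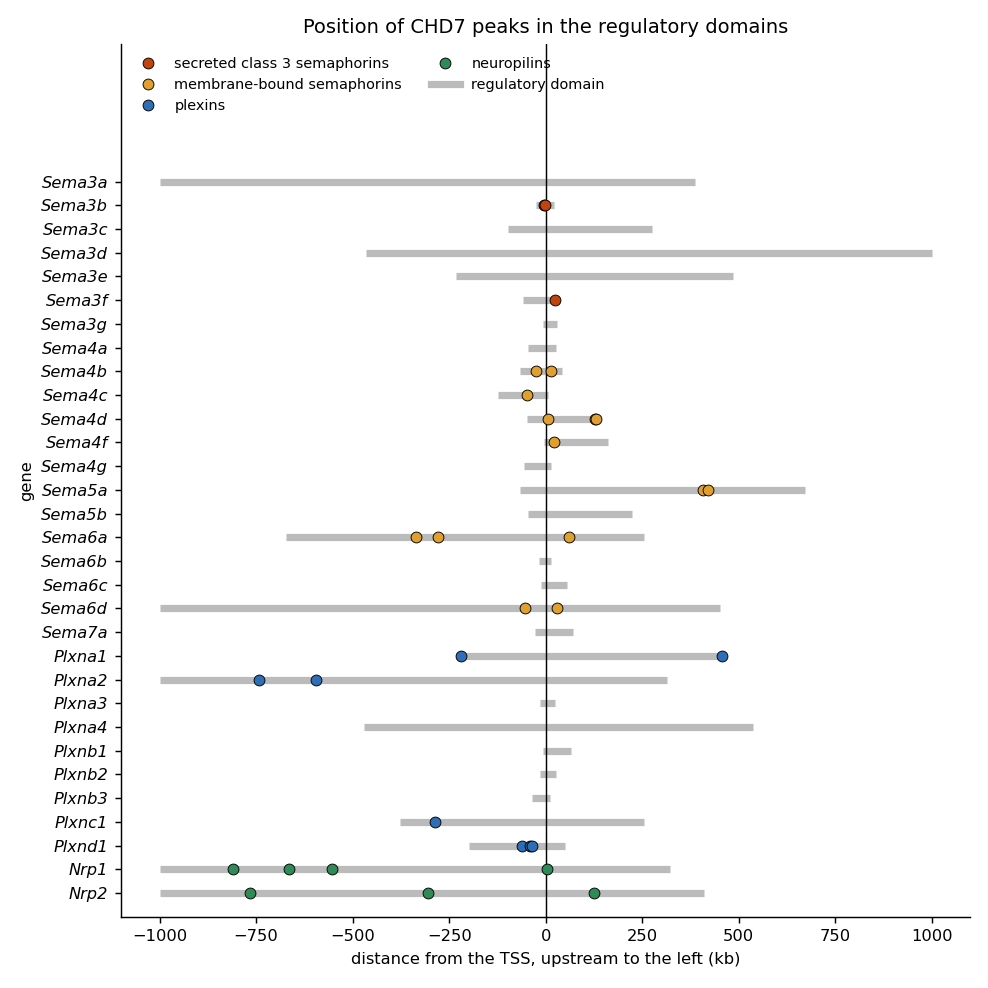
Distance of each of the 32 CHD7 peaks from the TSS of its gene (points, kb, upstream to the left), with the extent of each regulatory domain (grey lines). The Plxnd1 peaks lie close together between 35.7 and 62.4 kb upstream, those of Plxna2 are over 500 kb upstream, and the long domains of Sema3a, Sema3d, Sema3e and Plxna4 are empty.

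Among the class 3 semaphorins, the secreted ligands, peaks were found only for Sema3b and Sema3f, which lie near each other on chromosome 9. Both are known as repulsive cues and tumour suppressors. Sema3b had 2 peaks in a domain of 45.7 kb, and 0.6% of the 500 genes nearest in domain length had as many or more. This share counts separately 2 peaks with midpoints only 2282 bp apart. At least 1 peak was found for 12.4% of genes of like length. The TSS of Sema3b is at 107609199 on the minus strand. Peak 2033 (107609681 to 107610916, 1236 bp wide) was 1100 bp and peak 2034 (107611609 to 107613552, 1944 bp wide) was 3382 bp upstream of it, both intergenic. They were the only peaks in the basal domain, 5 kb upstream to 1 kb downstream, of any of the 31 genes, and the only gene they were assigned to was Sema3b. Sema3f had 1 peak in 85.3 kb, and 17.8% of genes of like length had a peak. Peak 2035 (107685389 to 107686541) is in intron 11 of 17 of Sema3f, 24510 bp downstream of the TSS. A shorter Sema3f transcript, a retained intron by annotation, starts 1168 bp from this midpoint, but the nearest protein-coding transcript is that of Gnat1, at 6253 bp.

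Sema3a, Sema3c, Sema3d and Sema3e, which include the ligands best known from outflow tract and vessel development, had 0 peaks in domains that cover 2.96 Mb, or 3.94 Mb when the stretch shared by the overlapping domains of Sema3a and Sema3d is counted for both genes. The mean counts of genes of like length sum to 3.14 for these 4 genes, and the shares of their deciles to 1.77 genes with a peak, and both sums count the shared stretch for each gene. Each of the 4 taken alone is not unusual, since 53.4% to 58.6% of genes of like length also had 0. Their domains measure 1387 kb for Sema3a, 372 kb for Sema3c, 1464 kb for Sema3d and 717 kb for Sema3e. All 4 lie in the same stretch of chromosome 5 without a peak, between the midpoints 8997118 and 18137352, which is 9.14 Mb long and holds the TSSs of 42 protein-coding genes. By length it ranks 11 of the 3740 gaps between neighbouring peaks, whose median is 276 kb. The 4 genes thus share this gap and are not independent of each other. The nearest peak was 563 kb from the TSS of Sema3c and 3386 to 4402 kb from those of the other 3. Sema3g, with a domain of 34.6 kb on chromosome 14, also had 0, and its nearest peak was 56.4 kb away.

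The membrane-bound semaphorins of classes 4 to 7 act at short range and can also signal as receptors. Of the class 4 genes, Sema4b, Sema4c, Sema4d and Sema4f had peaks. Sema4d, a ligand of Plxnb1 that is also known from immune cells as CD100, had 3 in 189 kb, a number reached by 1.8% of genes of like length. This share counts peaks 2801 and 2802, with midpoints 4227 bp apart, separately. Peak 2803 (chromosome 13, 51787224 to 51788040) is in intron 1 of 15 of Sema4d, 6115 bp downstream of the TSS. Peaks 2802 (51666203 to 51667299) and 2801 (51662288 to 51662759) were 126996 and 131223 bp downstream, past the 3′ end of the gene, in introns 7 and 5 of Secisbp2, and had a Secisbp2 TSS nearer to them. Sema4b had 2 peaks on chromosome 7 in 107 kb, a number reached by 2.8% of genes of like length. Peak 1504 (80159686 to 80161217) is intergenic, 26389 bp upstream, and peak 1505 (80200176 to 80200582) is in intron 2 of 14 of Sema4b, 13538 bp downstream of the TSS. Sema4c, a ligand of Plxnb2, had peak 17 on chromosome 1 (36606211 to 36606872), 49016 bp upstream in intron 7 of Fam178b. Of genes of like length to Sema4c, 22.8% had a peak.

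Sema4f had a single peak, peak 1278 on chromosome 6 (82917276 to 82918178), in its own intron 10 of 13 and 22042 bp downstream of its TSS. A peak was found for 33.2% of genes of like length. Peak 1278 was the only peak within 1 kb of a TSS of any transcript of its own gene, since a processed transcript of Sema4f starts 141 bp from the midpoint. The central 300 bp of this peak, without a match to any motif searched, and of the Sema4d peak nearest to its TSS, with a match to the caudal motif in capitals, follow.
Sema4f peak 1278, chr6:82917577-82917876, GRCm38, plus strand: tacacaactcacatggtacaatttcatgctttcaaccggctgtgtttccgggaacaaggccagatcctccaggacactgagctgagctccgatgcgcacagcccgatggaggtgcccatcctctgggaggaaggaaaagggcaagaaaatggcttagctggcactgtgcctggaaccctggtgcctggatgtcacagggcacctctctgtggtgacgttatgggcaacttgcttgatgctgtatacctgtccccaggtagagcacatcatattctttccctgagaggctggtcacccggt
Sema4d peak 2803, chr13:51787482-51787781, GRCm38, plus strand: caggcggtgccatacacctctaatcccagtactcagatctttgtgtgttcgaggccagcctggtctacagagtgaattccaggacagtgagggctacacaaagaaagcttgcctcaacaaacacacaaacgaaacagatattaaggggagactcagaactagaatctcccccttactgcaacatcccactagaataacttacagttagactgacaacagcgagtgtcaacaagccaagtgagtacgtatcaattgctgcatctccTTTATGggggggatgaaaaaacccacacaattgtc

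Class 5 and class 6 semaphorins had peaks in Sema5a, Sema6a and Sema6d. Sema6a, a ligand of Plxna2 and Plxna4, had 3 peaks in 927 kb on chromosome 18, a number reached by 11.6% of genes of like length. Peak 3557 (47308038 to 47308640) is in intron 1 of 18 of Sema6a, 60491 bp downstream of its TSS. Peaks 3558 (47646384 to 47648378) and 3559 (47703539 to 47704042) were 278551 and 334961 bp upstream, in introns 1 and 2 of a lincRNA, and no protein-coding TSS was nearer to them than that of Sema6a. At 1995 bp, peak 3558 was the widest of the 32. Sema6d, which acts through Plxna1 in cardiac morphogenesis, had 2 peaks on chromosome 2 in 1453 kb. Such a number was reached by 21.6% of genes of like length. Peak 440 (124639049 to 124639506) is in intron 1 of 18 of the transcript used, 28705 bp downstream of its TSS. Peak 439 (124557146 to 124557795), 53102 bp upstream of that TSS, is in intron 5 of a longer Sema6d transcript. Sema5a, with 2 peaks in 737 kb on chromosome 15, had both in its intron 16 of 22, peak 3106 (32652047 to 32652967) at 407694 bp and peak 3107 (32665528 to 32667199) at 421551 bp downstream of the TSS. Sdc2, at 268216 and 254359 bp, had the nearest TSS of a protein-coding transcript to both. Of genes of like length, 23.0% had as many peaks as Sema5a or more.

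The membrane-bound semaphorins without a peak were Sema4a (72.2 kb), Sema4g (69.4 kb), Sema5b (270 kb), Sema6b (30.5 kb), Sema6c (69.6 kb) and Sema7a (97.6 kb), with their domain lengths in parentheses. The nearest peak, outside the domain in each case, was 15.2 kb from the TSS for Sema6b, 26.8 kb for Sema6c and 122 to 171 kb for the other 4. Peak 3455, the nearest to Sema6b, has its midpoint at 56125159, inside the gene (56123085 to 56140343) but past the domain edge at 56127002. Of the 16 genes of the whole family with 0 peaks, 10 had domains under 100 kb and 4 were in the longest decile.

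By role, the membrane-bound semaphorins had 3.24 peaks per Mb of domain, the neuropilins 2.56, the plexins 1.95 and the class 3 semaphorins 0.731, or 0.961 with the overlap of Sema3a and Sema3d counted once. Density was lower in long domains, 1.04 per Mb for genes of the 2 longest deciles, so this order mixes role and length. Beside the summed means of genes of like length, the peaks were 7 against 1.66 for neuropilins, 14 against 5.21 for membrane-bound semaphorins, 8 against 4.19 for plexins and 3 against 3.58 for class 3 semaphorins. The neuropilin count rested on distant peaks. With the extension limited to 100 kb, Nrp1 had 1 peak and Nrp2 was left without any, while Plxnd1 had 3, Sema3b 2 and Sema3f 1. The number of genes with a peak, set against the sum of the shares of their deciles, was 7 against 3.55 for membrane-bound semaphorins, 4 against 2.63 for plexins, 2 against 0.882 for neuropilins and 2 against 2.16 for class 3 semaphorins. These groups are small. The Wilson intervals of their shares, 29.1 to 76.8% for membrane-bound and 8.22 to 64.1% for class 3 semaphorins, overlapped widely, and the difference between them was not tested. These intervals cover counting error only and treat genes as independent, which Sema3a, Sema3c, Sema3d and Sema3e, sharing a gap without a peak, are not.

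Most of the peaks were far from the TSS of their gene. Of the 32 pairs, 28 (87.5%) were over 10 kb from it, compared with 81.5% of the 6819 pairs over all genes. When distance was taken to whichever annotated TSS of the gene was closest, these shares were 78.1% and 73.6%. Beyond 100 kb there were 17 pairs (53.1%, against 35.5%), and the median distance was 126 kb against 57.4 kb. Long domains go with long distances, and among genes of the longest decile the shares were closer, beyond 10 kb 94.7% of 19 pairs for the family and 95.4% of 1728 for all genes, and beyond 100 kb 78.9% and 73.4%. Upstream of the TSS were 19 of the 32 (59.4%), while over all pairs the upstream share was 44.0%. By role, 7 of 8 plexin pairs, 5 of 7 neuropilin pairs and 2 of 3 class 3 semaphorin pairs were upstream, but 5 of 14 for membrane-bound semaphorins. By the annotation at the midpoint, 10 peaks were in an intron of the assigned gene, 12 in an intron of another protein-coding gene, 3 in a lincRNA only, 7 were intergenic and 0 were in an exon of a protein-coding gene. No peak was assigned to 2 genes of the family, but 29 were also assigned to a neighbour outside it. The nearest TSS was that of the assigned gene for 16 of the 32 when TSSs of all protein-coding transcripts were counted, for 18 with the noncoding transcripts of protein-coding genes as well, and for 20 with 1 TSS per gene.

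The 32 peaks were wider than the list as a whole, with a median of 912 bp (398 to 1995 bp) against 703 bp. Above the upper quartile of all peaks, 1053 bp, were 15 of the 32 (46.9%, Wilson 95% CI 30.9 to 63.6). The neuropilin peaks had a median of 1482 bp and the 3 class 3 semaphorin peaks of 1236 bp, while the membrane-bound semaphorins, at 739.5 bp, were near the list's median. The median GC content was 46.0% (39.6 to 56.3%) against 47.5% over all peaks, and the ratio of observed to expected CpG in the central 300 bp was 0.191 against 0.208. All 3 class 3 semaphorin peaks had a GC content over 50%, with a median of 54.4%. Some of the peaks came in close pairs. Of the 32, 6 (18.8%) had another peak midpoint within 5 kb, namely the pairs at Sema3b, Sema4d and Plxnd1, compared with 2.79% of all peaks. Among genes of the longest decile, 0 of the 19 family peaks had one, against 3.05% for all genes of that decile.

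**Figure D4:**
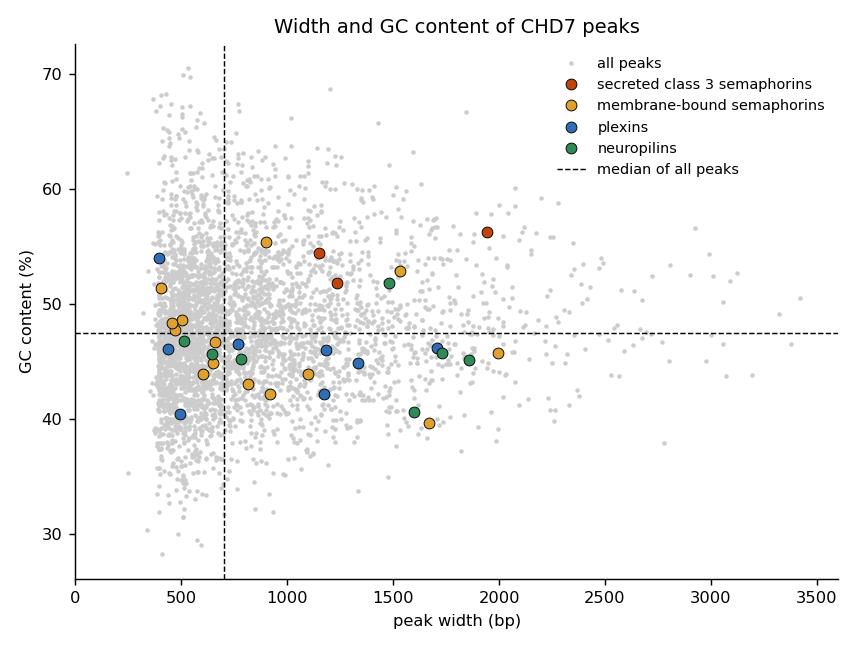
Width (bp) and GC content (%) of the 32 peaks, coloured by role, over all 3761 peaks in grey, with the medians of all peaks as dashed lines. Of the 32 peaks, 20 are to the right of the median width of 703 bp, and the 3 class 3 semaphorin peaks lie in the upper right part.

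Motifs other than MEF2 were searched as plain letters on both strands of the central 300 bp of every peak. MEF2 was searched in the same windows with a pattern that is not printed here. The GATA letters, spelled AGATAA, matched in 9 of the 32 peaks (28.1%, Wilson 95% CI 15.6 to 45.4) and in 17.4% of all 3761. The peaks with a GATA match belonged to Nrp1 (peak 1828, with 2 matches), Nrp2 (peak 53, with 3, and peak 54), Plxna2, Plxnd1 (peak 1343), Sema3f, Sema5a (both peaks) and Sema6d (peak 439). The HAND E-box (CATCTG) also matched in 9 (28.1%), against 23.4% of all peaks, and TEAD (GGAATG) in 6 (18.8%), against 17.1%, with matches in all 3 Sema6a peaks. The GC box (GGGCGG) was found in 4 peaks (12.5%, against 11.2%), with 3 matches in Sema3b peak 2034. The caudal letters (CATAAA) matched in 3 peaks (9.38%, against 13.7%), and ISL1 (CTAATG) and TCF/LEF (ATCAAAG) in 2 each (6.25%), against 11.5% and 5.21%. MEF2 matched in 1, Nrp1 peak 1827 (3.12%, against 2.79%). Matches were 0 for NKX2-5 (TCAAGTG, 4.44% of all peaks), T-box (AGGTGTGA, 1.22%) and the CTCF core (AGGGGGC, 5.64%). These shares hold for the central window. Whole peaks, which are longer and were wider in median for the 32 than over the list, held the CTCF core in 12.5% (13.8% of all peaks), NKX2-5 in 3.12% (11.2%), T-box in 0% (4.44%), GATA in 53.1% (36.8%) and the HAND E-box in 71.9% (49.5%). In the central window the share over all peaks was within the interval for the 32 for each of the 11 motifs. None thus stood apart there beyond counting error. Intervals are given for that window only. In whole peaks the HAND E-box differed more, at 71.9% against 49.5%, and this difference was not tested. A match is a run of letters and was not measured as a bound site.

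**Figure D5:**
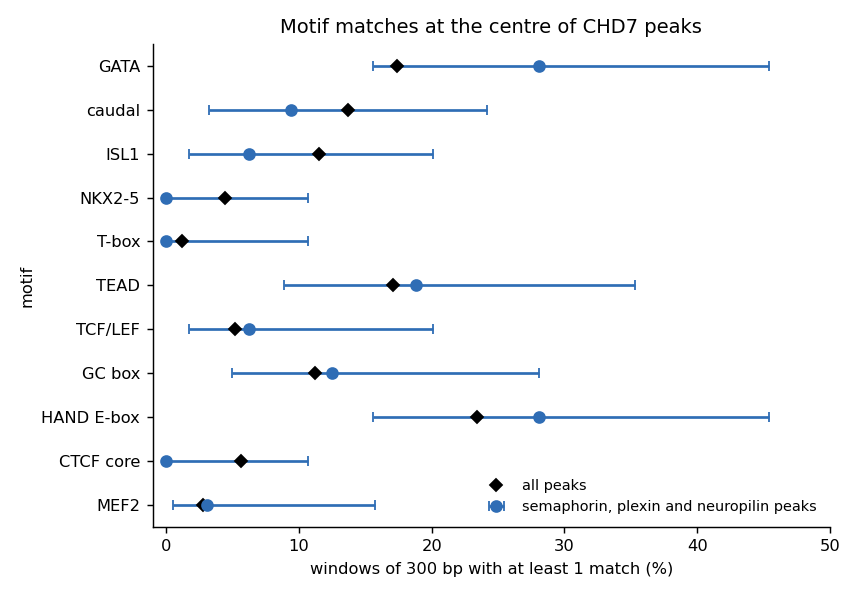
Share of 300 bp windows with at least 1 motif match (%) in the 32 semaphorin, plexin and neuropilin peaks (blue points, with Wilson 95% confidence intervals) and in all 3761 peaks (black diamonds). Every black diamond lies within the blue interval, including GATA with 17.4% against 28.1%.

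Partners of the pathway were described from a list of 49 genes for co-receptors, GTPases with their regulators, and effectors on the cytoskeleton. Of these, 21 (42.9%) had a peak, with 13.4 as the sum of the shares of their deciles of domain length and 22.7% of all genes as background. With the single nearest TSS, 12 of the 49 had a peak, against a sum of 8.37. The cytoskeletal effectors and kinases had 9 of 16 against a sum of 4.25, the co-receptors and partners 6 of 15 against 4.72, and the GTPases, exchange factors and GAPs 6 of 18 against 4.44. Limk2, a kinase that inactivates cofilin, had 3 peaks in 120 kb, where genes of like length had a mean of 0.28. Mical1, an enzyme that oxidises actin downstream of plexins, had 2 in 34.1 kb, the nearest 3.62 kb upstream of its TSS. Cntn2, a neural cell adhesion molecule, had 2 in 233 kb. The peak of the integrin gene Itgb1, which is the downstream neighbour of Nrp1, was the same as peak 1830 of Nrp1.

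Other guidance families are described beside these. Of 41 genes, 13 (31.7%) had a peak, with a sum over their deciles of 13.1, and the ratio of these was 0.99. The same ratio was 1.63 for the semaphorin, plexin and neuropilin genes and 1.57 for the pathway partners. The ephrins and Eph receptors had 5 of 22 against 6.41, and the Slits, Robos, netrins, DCC and UNC5 genes 8 of 19 against 6.72. The genes with the most peaks were Slit3, Efnb2 and Robo2, with 3 each in domains of 926, 1028 and 2000 kb. The Wilson intervals of the shares, 19.6 to 47.0% for these families and 32.0 to 65.2% for the 31 genes, overlapped, and the difference was not tested.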

How the data were processed

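The authors made 9 CUT&RUN libraries from CP cells and, per the labels and the study's methods, trimmed reads with fastp 0.20.1, aligned them to mm10 with BWA 0.7.17.4, deduplicated them by UMI with JE-Suite and called peaks in each sample with MACS2 2.1.2 against IgG. Peaks that overlapped in 2 or more of the 3 replicates were kept. The deposited values are positions in bp (start and end), other than which the list gives no score, so depth and replicate spread could not be examined. The calling threshold and how the edges of overlapping peaks were set are not given in the sources used here. The reads, IgG and input were not analysed here.

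Starts were read as counted from 0 and are printed as counted from 1. Peak numbers are the order in the list. Genes and TSSs were from GENCODE M21 (GRCm38), 1 transcript per protein-coding gene, taken by protein-coding status, then APPRIS level, then spliced length, without the mitochondrial genome. Deciles hold all genes ranked by domain length. Every one of the 31 genes is named; of each other list, the 3 genes with the most peaks, ties going to the shorter domain. Sequences were printed for peaks within 1 kb of a TSS of their gene and for the peak nearest to the TSS of the genes with 3 or more peaks, except on chromosome 18. The genes and lists were chosen with earlier results of these data known, and the stretch of chromosome 5, the close pairs, Pard3 and Pard3b, and Itgb1 were described after their values were seen. Intervals are Wilson 95% confidence intervals. The functions were tested on simulated data. Python 3.11.15, numpy 2.4.6, pandas 2.3.3, scipy 1.17.1, matplotlib 3.10.9 and samtools 1.23.1 were used.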

Additional observations from a re-analysis of the deposited data

How the results depend on the processing

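No paired analysis was possible because the list joins the replicates and the results come from no test; for the same reason no replicate could be left out. Depth limits the list in ways that cannot be seen from it. Under each of the 8 other settings with domains of varying length, the genes with a peak outnumbered the sum from domain length, with ratios from 1.56 to 2.27. Several of these settings hardly change the input. The most upstream TSSs, merged peaks and starts counted from 1 gave 1.63, as reported, and any overlap gave 1.61. The highest ratio came from keeping only peaks wider than the median, which 20 of the 32 are. The basal domain and the fixed window hardly vary in length, so their sums use the deciles of the main domains and say little about length. The basal domain alone left 1 gene, Sema3b, with 2 peaks, and a sum of 0.84, and the fixed window 14 genes and 9.41. With the single nearest TSS, 11 genes had 20 peaks, and the sum was 6.11. With the extension limited to 100 kb, 10 genes had 15 peaks, the sum was 5.96 and there were 3.72 peaks per Mb. With only peaks wider than the median there were 12 genes, 20 peaks and a sum of 5.29. The single nearest TSS left 12 pathway partners with a peak against a sum of 8.37, and 10 genes of the other guidance families against 8.68. At least 1 of the motifs was found in 68.8% of the 32 windows and in 96.9% of whole peaks, against 70.6 and 92.7% over all peaks. The lower counts of genes and peaks follow from settings that leave out peaks or give each peak to a single gene. The higher motif share follows from searching more sequence. The density over all genes was 2.08 per Mb with the 100 kb limit, against 1.48 without it, and the cause of its rise was not tested. Single motifs also moved: in whole peaks the caudal letters went from 9.38 to 50% (all peaks 35.8%), ISL1 from 6.25 to 28.1% (26.9%), TEAD from 18.8 to 46.9% (39.1%), TCF/LEF from 6.25 to 15.6% (14.5%) and MEF2 from 3.12 to 12.5% (9.55%). The caudal and ISL1 letters thus went from below to above the share of all peaks. The GC box went from 12.5 to 18.8% (23.4%), from above to below that share. In 200 bp windows MEF2 went to 0% (1.89%) and ISL1 and TCF/LEF to 3.12% each (7.76 and 3.48%). The 32 peaks are wider in median than the list as a whole, so their whole-peak shares come from more sequence per peak. Merging peaks under 5 kb apart left 29 peaks, since it joins the close pairs at Sema3b, Plxnd1 and Sema4d. The per-gene peak counts of these genes, and their shares beside genes of like length, take each pair as 2 peaks. The most upstream TSSs, any overlap, merged peaks, starts counted from 1, the fixed window of 100 kb to either side, and other length classes moved the counts of genes, peaks or the sum by less than 1.5 times. Under the fixed window, however, the 14 genes with a peak were not all the same. Nrp2, Plxna1, Plxna2, Plxnc1 and Sema5a had 0, while Plxnb1, Sema6b and Sema6c had 1 each and Sema3g had 2. Leaving out chromosome X, which was chosen after seeing the data, left 15 of 29 genes with a peak and a sum of 9.63.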
